A study of Mus musculus with 6 samples.

Results

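The ubiquitin-specific proteases, written USP, are the largest family of deubiquitinases, the enzymes that cut ubiquitin off other proteins. Their genes were read here in cultured mesenchymal stem cells of mouse bone marrow (mBMSCs), which are stromal cells with the capacity to become bone, fat or cartilage cells. Members were the protein-coding genes whose symbol is Usp followed by a digit, a rule that itself uses no measured value, and 52 of 15349 protein-coding genes (22030 genes of all types) met it. The deposited counts are titled as those of expressed genes, so family members left out of them are not covered. One of the 52, Usp6nl, met the rule by its symbol although its product is a GTPase-activating protein of Rab GTPases and not a deubiquitinase. RNA was sequenced in 6 libraries. In 3 of them, titled siNC, the genotype label is WT, and these are the controls. In the other 3, titled siRIOK3, it is RIOK3 knockdown, RIOK3 being an atypical kinase of the RIO family. The study's question is what RIOK3 does in the bone-forming differentiation of these cells. The design text speaks of stable lines made with lentivirus and also of a knockout, so the agent is not settled by the labels, and neither the number of clones nor an inducing medium is given in the sources used here. Whether replicates are separate cultures is not labelled, and p-values measure the spread among these libraries alone, which can be technical.

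Ubiquitin is joined to lysines of other proteins, alone or as chains, and marks them for the proteasome, for sorting between membranes or for signalling. A USP holds a cysteine, a histidine and an aspartate or asparagine at its active site, and the cysteine attacks the bond between ubiquitin and its target. Members differ in what lies outside this catalytic domain, which sets their targets, their place in the cell and the cofactors that switch them on. Receptors and SMAD proteins of the TGF-beta and BMP pathways, p53 and its ligase Mdm2, and proteins of DNA repair are among the targets described for them.

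The stretch around the active-site cysteine is a part of the coding sequence that most members share, and it is shown for the related members on which the results turn. It was found by its spacing of codons (glycine at the opening codon, asparagine at codon 4, glycine at codon 6 and cysteine at codon 9 of 12) in the transcripts of GENCODE M21, build GRCm38, and 45 of the 52 members had a single match. The 7 without a single match were Usp21, Usp34, Usp39, Usp47, Usp53, Usp54 and Usp6nl. Each line gives the 36 bases of the coding strand, 5′ to 3′, with the cysteine codon in capitals. The stretches of Usp12 and Usp46 are each split between 2 exons.
Usp1: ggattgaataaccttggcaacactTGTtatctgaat
Usp12: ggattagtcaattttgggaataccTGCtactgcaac
Usp46: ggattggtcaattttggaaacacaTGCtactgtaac
Usp4: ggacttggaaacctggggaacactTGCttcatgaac
Usp11: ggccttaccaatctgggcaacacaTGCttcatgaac
Usp15: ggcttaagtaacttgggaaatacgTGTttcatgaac
Usp25: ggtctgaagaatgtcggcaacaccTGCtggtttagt
Usp28: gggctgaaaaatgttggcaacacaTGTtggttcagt
Usp20: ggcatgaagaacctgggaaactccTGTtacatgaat
Usp33: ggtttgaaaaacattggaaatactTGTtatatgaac
Usp18: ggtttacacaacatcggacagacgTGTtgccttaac

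These stretches lie in coding exons, at chr4:98928307-98928342 (plus strand) for Usp1, chr9:108366831-108366866 (plus) for Usp4, chr10:123146806-123146841 (minus) for Usp15, chrX:20713349-20713384 (plus) for Usp11 and chr6:121253770-121253805 (plus) for Usp18. Usp12 and Usp46 differed at 5 bases and Usp25 and Usp28 at 6, all of them in synonymous codons, so that the 12 codons of each pair read the same residues. Usp4 and Usp15 differed at 10 bases in 8 codons, 7 of them synonymous. Usp1 differed from Usp12 at 15 bases and shared 9 of 12 residues with it. Usp20 and Usp33 also shared 9 of 12.

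The libraries held between 28327612 and 32569544 counts, and Riok3 itself (ENSMUSG00000024404.8) was at 4266, 5365 and 4022 counts in control replicates 1, 2 and 3 and at 1034, 1048 and 1155 in knockdown replicates 1, 2 and 3. Its log2 fold change, knockdown over control, was −2.23 (SE 0.178, adjusted p = 0.000127, edgeR quasi-likelihood test with Benjamini-Hochberg adjustment over 13067 tested genes). A gene is called changed here at an adjusted p under 0.05, and levels are given in CPM, counts scaled to the size of each library with TMM factors, as mean ± SD over 3 libraries. Control replicate 2 stood apart, with a Spearman correlation of log2 CPM of 0.963 and 0.968 with the other controls, against 0.996 between these. Fold changes also ran with the GC content of transcripts, the share of G and C in their sequence. The main results are therefore given again from a fit in which every library's trend on GC content was removed, called the GC-corrected fit. In it Riok3 was at −1.20 (adjusted p = 0.0105), and with the longest transcript of each gene, a choice added after the data were seen, it was at −0.62 and was not called (adjusted p = 0.0975). Of 12 stromal marker genes 11 were tested, of which 5 rose and 4 fell with a median log2 fold change of −0.24, and Lepr was under 1 CPM everywhere. The levels of the 12 summed to 424.6 to 571.7 CPM in the controls and to 649.2 to 676.5 CPM under knockdown. The leukocyte markers Ptprc, Itgam, Csf1r and Lyz2 and the endothelial markers Pecam1 and Cdh5 were under 1 CPM in every library. Kdr, the other endothelial marker listed, was not. The endothelial list summed to 2.73 to 7.12 CPM in the controls and to 6.84 to 8.15 CPM under knockdown, without a call. Of the other leukocyte markers, Cd68 and Cd14 reached 1 CPM in some library, and Adgre1 was not among the deposited genes. The summed leukocyte list, nearly all of it Cd68, was at 26.6 to 43.2 CPM in the controls and at 46.5 to 51.8 CPM under knockdown, and its part in the results was not tested.

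RNA of the USP family was lower in the knockdown more often than it was higher. Of 46 tested members 18 (39.1%) fell and 5 (10.9%) rose, where 26.8% of all tested genes fell and 21.1% rose (48.0% changed in either direction). The remaining 23 did not pass the test. The median log2 fold change of the members was −0.14, against 0.01 for all tested genes, and it was 0.071 with upper-quartile factors and 0.11 with scaling by library totals, which move the median of all genes to 0.21 and 0.26. Under these scalings 16 members fell and 10 rose, and 15 fell and 8 rose. The sum of the members' levels was 3652, 2055 and 3494 CPM in the control libraries and 1964, 1963 and 2025 CPM in the knockdown libraries. Control replicate 2 therefore lay close to the knockdown in this sum, and the other controls far above it. In bulk RNA a lower level in each cell and fewer cells that express a gene cannot be told apart.

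With the GC trend removed, 9 members (19.6%) fell and 5 (10.9%) rose, where 15.2% of all genes fell and 16.3% rose, and the member median was −0.016 against 0.029. Usp1, Usp15, Usp16, Usp24, Usp32, Usp34, Usp38, Usp48 and Usp53 fell in both fits, and Usp18 rose in both. A further 7 falls (Usp7, Usp9x, Usp25, Usp31, Usp33, Usp45 and Usp47) and 4 rises (Usp4, Usp20, Usp21 and Usp30) were called only without the correction. Usp14 and Usp37 were called lower without it and higher with it, and Usp3 and Usp46 were called higher only with it. The trend itself differs between the groups, so a technical trend and an effect of the knockdown on GC-poor RNA cannot be told apart. Without control replicate 2 the counts were 24 lower and 10 higher (36.5% and 35.1% of all genes), and with both changes 21 lower and 12 higher (27.9% and 33.6% of all genes). In this last fit Usp7, Usp9x, Usp25, Usp31 and Usp47 were called lower and Usp4 and Usp30 higher, whereas Usp33, Usp45, Usp20 and Usp21 were not called. Members without a call in the uncorrected fit were called in it too. Usp5, Usp8, Usp10, Usp19, Usp35, Usp36 and Usp54 were lower, and Usp3, Usp6nl, Usp11, Usp13, Usp17la, Usp22 and Usp46 were higher. Leaving out control replicate 2 alone had called Usp5, Usp10 and Usp19 higher (0.26, 0.19 and 0.24), against −0.22, −0.17 and −0.35 here. It had called Usp6nl lower (−0.38), against 0.29 here. The groups did not overlap in CPM for 32 of 46 members (69.6%), and for 62.1% of all tested genes.

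**Figure D1:**
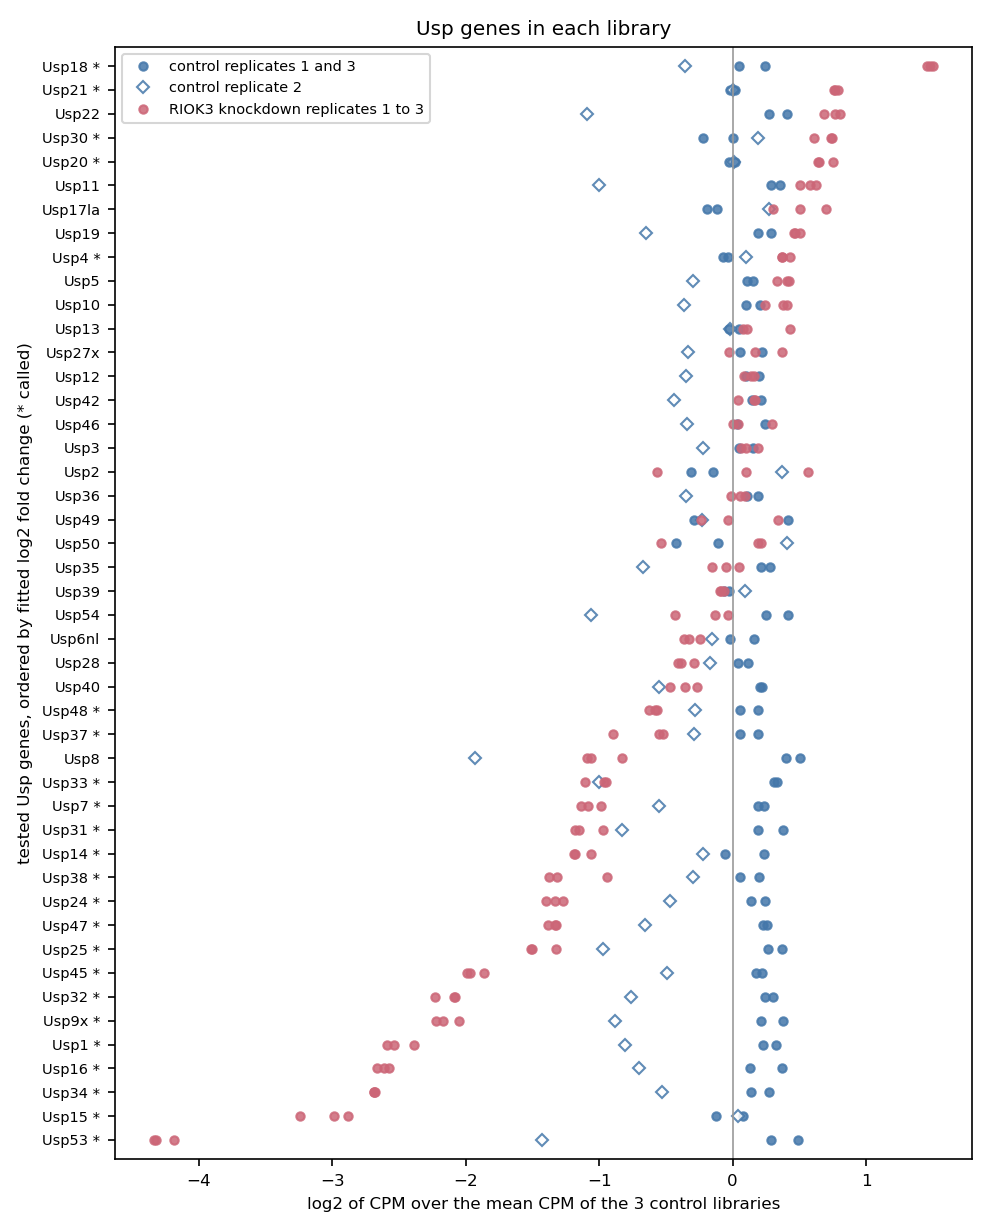
Level of each tested Usp gene in each library, as the log2 of its CPM over the mean CPM of the 3 control libraries (x axis), with genes ordered by fitted log2 fold change (y axis, an asterisk marks a called gene) and 1 symbol per library. The knockdown libraries sit together for most genes, whereas control replicate 2 (open diamonds) lay below both other controls for 35 of the 46 genes.

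Levels between members are compared in FPKM, which is scaled by gene length and by library total but not by TMM. Ranks between members depend on the gene lengths the authors used, which need not be those of the transcripts used here. By counts per base of these transcripts, Usp47 (14252 counts, 5816 nt) lay above Usp8 (8639 counts, 4154 nt) in control replicate 1. Over all libraries the highest members were Usp8, Usp39, Usp36, Usp22 and Usp1, with mean values of 34.7, 33.5, 29.1, 23.7 and 22.7 FPKM. Usp8 went from rank 1 in control to rank 5 in the knockdown, and was at 11.1 FPKM in control replicate 2. Usp36 went from 4 to 2 and Usp22 from 6 to 3. Usp8 acts on receptors at endosomes, Usp39 is a spliceosome protein that has lost its protease activity, Usp36 works in the nucleolus, Usp22 removes ubiquitin from histones within the SAGA complex, and Usp1 acts in DNA repair. Usp39 was steady, at 30.4, 32.8 and 30.6 FPKM in the controls and 35.3, 36.1 and 35.6 FPKM under knockdown, and ranked 3 and 1 in the groups. The rank of Usp1 went from 2 in control (37.5 ± 14.3 FPKM) to 14 in the knockdown (7.97 ± 0.648 FPKM), and that of Usp18 from 12 (9.40 ± 2.10 FPKM) to 4 (31.6 ± 0.375 FPKM). Usp53 went from rank 10 to 37. In all, 14 members reached a mean of 10 FPKM in at least 1 group, and 12 of the 51 members in the FPKM table stayed under 1 FPKM in both.

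Among the members of genome maintenance and the cell cycle, 6 of 9 tested fell, none rose and the median log2 fold change was −1.07, where 26.8% of all tested genes fell and 21.1% rose. All that fell except Usp7 have transcripts under 45% GC, a class in which 74.1% of all genes fell. With the GC trend removed 2 fell and 2 rose, where 15.2% and 16.3% of all genes did, and these shares stand behind the counts of every group below. Usp1 (ENSMUSG00000028560.12, chromosome 4), which takes ubiquitin off Fancd2 and Pcna in DNA crosslink repair and replication, was at 198, 90.5 and 185 CPM in the control libraries and 26.2, 27.2 and 30.2 CPM in the knockdown libraries. All control libraries were above all knockdown libraries, although control replicate 2 was at less than the other controls. The means were 158 ± 58.9 and 27.9 ± 2.09 CPM, 5.67-fold lower under knockdown (log2 fold change −2.50, SE 0.30, adjusted p = 0.000683), and it was at −1.47 in the GC-corrected fit (adjusted p = 0.00356). Usp16 (ENSMUSG00000025616.15, chromosome 16), which removes ubiquitin from histone H2A, was at 109, 51.9 and 92.3 CPM in the control libraries and 13.3, 14.2 and 13.8 CPM in the knockdown libraries. The groups did not overlap. Usp16 had a log2 fold change of −2.62 (SE 0.276, adjusted p = 0.000404), or −1.64 with the GC trend removed. That corrected call rests on the transcript used: with the longest transcript of each gene Usp16 was at −0.46 and was not called.

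Usp7 (ENSMUSG00000022710.18, chromosome 16), the protease of Mdm2 and p53, was at 138, 79.6 and 134 CPM in the control libraries and 55.1, 53.1 and 59.0 CPM in the knockdown libraries. The knockdown libraries lay within a narrow band below every control, and the log2 fold change was −1.07 (SE 0.219, adjusted p = 0.00655). In the GC-corrected fit Usp7 was at −0.27 and did not pass (adjusted p = 0.225). Usp45 (ENSMUSG00000040455.18, chromosome 4), which acts on the repair nuclease subunit Ercc1, was at 19.1, 11.7 and 18.5 CPM in the control libraries and 4.51, 4.21 and 4.12 CPM in the knockdown libraries, without overlap. It fell by 3.84-fold in CPM (log2 fold change −1.94, SE 0.217, adjusted p = 0.000523). Its transcript is among the poorest in GC of the family (39.4%), and the GC-corrected value was 0.23 (adjusted p = 0.25). With GC content and length both removed Usp45 was called higher, at 0.39 (adjusted p = 0.0286). Usp47, a protease of the repair polymerase beta, went from −1.35 (adjusted p = 0.004) to −0.28, not called. It stayed negative in every alternative setting, from −1.59 to −0.11. Usp37, which stabilises cyclin A, was called lower at −0.65 (adjusted p = 0.0229) and higher at 0.46 (adjusted p = 0.0418) in the 2 fits. The lower call was kept in 6 of the 20 alternative settings that gave it a value, and in 10 it was not called. Usp28 (ENSMUSG00000032267.9, chromosome 9), which stabilises Myc and binds 53BP1, was at 17.2, 14.9 and 18.1 CPM in the control libraries and 13.7, 12.6 and 12.8 CPM in the knockdown libraries. Its groups did not overlap, but its log2 fold change of −0.36 did not pass (adjusted p = 0.06). Without control replicate 2 it was at −0.44 and passed (adjusted p = 0.000938), and in the GC-corrected fit it was at 0.12. Usp3 and Usp10, proteases of histone H2A and of p53, were at 0.12 and 0.34 without a call, and Usp3 was called higher in the GC-corrected fit (0.51, adjusted p = 0.0118).

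Among the signalling members Usp15 fell and its relative Usp4 rose. Of 8 tested members 4 fell and 2 rose, with a median of −0.67 (26.8% and 21.1% of all tested genes), and in the GC-corrected fit 2 fell and 1 rose (15.2% and 16.3% of all genes). Usp15 (ENSMUSG00000020124.11, chromosome 10), which acts on the TGF-beta receptor complex and on SMADs, was at 115, 112 and 99.8 CPM in the control libraries and 13.7, 11.5 and 14.8 CPM in the knockdown libraries. The control libraries, replicate 2 included, lay between 99.8 and 115 CPM, and without control replicate 2 the log2 fold change was −3.01. The means were 109 ± 7.93 and 13.3 ± 1.66 CPM, 8.16-fold lower under knockdown (log2 fold change −3.03, SE 0.152, adjusted p = 2.82e-05), and it was at −1.61 in the GC-corrected fit (adjusted p = 0.00109). Usp4 (ENSMUSG00000032612.15, chromosome 9), its closest relative in domain layout, was at 47.4, 53.5 and 48.8 CPM in the control libraries and 67.1, 64.6 and 64.6 CPM in the knockdown libraries. All knockdown libraries were above all controls, and the rise was small (log2 fold change 0.39, SE 0.117, adjusted p = 0.0283). Usp4 kept its call in 11 of 22 alternative settings. It lost it without any 1 of the libraries other than control replicate 2, with adjusted p from 0.0809 to 0.116, and in the GC-corrected fit (0.28, adjusted p = 0.139). Usp11 (ENSMUSG00000031066.11, chromosome X), the third of these relatives, was at 44.0, 17.3 and 42.1 CPM in the control libraries and 48.9, 51.4 and 53.2 CPM in the knockdown libraries. It did not pass (log2 fold change 0.57, SE 0.329, adjusted p = 0.192), and its controls spread from 17.3 to 44.0 CPM. Without control replicate 2 it was at 0.25 and passed (adjusted p = 0.00561).

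Usp34 (ENSMUSG00000056342.17, chromosome 11), a protease of Axin in the Wnt pathway that is also described in the bone formation of marrow stromal cells, was at 164, 94.0 and 149.5 CPM in the control libraries and 21.1, 21.0 and 21.2 CPM in the knockdown libraries. Its knockdown values were nearly equal and far below every control. The fall was 6.43-fold (log2 fold change −2.68, SE 0.224, adjusted p = 0.000151), and −1.04 on the log2 scale in the GC-corrected fit (adjusted p = 0.00197). Of the annotated exon bases of Usp34 11.6% are shared with Ahsa2 on the opposite strand, and nothing in the sources says whether reads were counted by strand. Usp9x (ENSMUSG00000031010.18, chromosome X), a large X-linked protease of SMAD4 and Mcl1, was at 199, 82.9 and 178 CPM in the control libraries and 34.0, 32.8 and 37.0 CPM in the knockdown libraries. The groups were apart and the log2 fold change was −2.15 (SE 0.317, adjusted p = 0.00165). With the GC trend removed it was at −0.10 (SE 0.214, adjusted p = 0.759), at a transcript GC content of 40.0%. With control replicate 2 left out as well it was at −0.30 and was called lower. Usp25 (ENSMUSG00000022867.12, chromosome 16), which acts on tankyrases and on TRAF proteins, was at 30.8, 13.1 and 33.2 CPM in the control libraries and 9.04, 10.2 and 9.02 CPM in the knockdown libraries. Control replicate 2 was here nearer to the knockdown than to the other controls. Usp25 fell (log2 fold change −1.45, SE 0.336, adjusted p = 0.011) and did not pass in the GC-corrected fit (−0.68, adjusted p = 0.1). Usp2, a protease linked to the circadian clock, was under 1 CPM in every library.

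Usp18 (ENSMUSG00000030107.11, chromosome 6) had the largest rise of the family. It removes the ubiquitin-like modifier ISG15 from proteins and dampens the type I interferon receptor. It was at 30.6, 23.2 and 35.1 CPM in the control libraries and 83.9, 81.4 and 82.5 CPM in the knockdown libraries. All knockdown libraries were far above the highest control, and the group means were 29.6 ± 6.03 and 82.6 ± 1.27 CPM, 2.79-fold higher (log2 fold change 1.48, SE 0.172, adjusted p = 0.000609). Unlike most calls in the family it changed little with the correction, to 1.39 (SE 0.143, adjusted p = 0.000938), and it was called higher in all 22 alternative settings, with log2 fold changes from 1.27 to 1.76. Of its transcript 50.9% is G or C, close to the median of all tested genes (50.4%). Of the other 4 genes of the ISG15 pathway, Ube2l6, the conjugating enzyme, rose, with means of 9.07 ± 1.95 and 24.2 ± 0.931 CPM (log2 fold change 1.42, SE 0.180, adjusted p = 0.000879). Uba7, the activating enzyme, rose too (0.90, adjusted p = 0.0277) and was not called in the GC-corrected fit (0.48). Herc6, the ligase, fell, with means of 29.4 ± 10.5 and 4.14 ± 0.184 CPM (log2 fold change −2.83, SE 0.297, adjusted p = 0.000399), and was at −0.65 in the GC-corrected fit. Isg15 itself, at 21.2, 40.7 and 29.2 CPM in the control libraries and 44.3, 42.0 and 44.1 CPM in the knockdown libraries, did not pass (adjusted p = 0.103).

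Of 6 tested chromatin and nucleolus members 1 rose and none fell, with a median of 0.15. Among all tested genes 21.1% rose and 26.8% fell. The transcripts of these 6 all have 50% GC or more, a class in which 36.2% of all genes rose and 5.25% fell. None was called in the GC-corrected fit, where 15.2% of all genes fell and 16.3% rose. Usp21 (ENSMUSG00000053483.16, chromosome 1), a protease of histone H2A, was the one that rose. It was at 11.3, 11.5 and 11.6 CPM in the control libraries and 19.8, 19.4 and 19.6 CPM in the knockdown libraries. Replicates were nearly equal within each group and the groups were far apart (log2 fold change 0.77, SE 0.118, adjusted p = 0.0018), yet the GC-corrected value was 0.20 (adjusted p = 0.216), at a transcript GC content of 57.7%. Usp22 (ENSMUSG00000042506.16, chromosome 11), the ubiquitin protease of the SAGA complex, was at 104, 40.4 and 114 CPM in the control libraries and 139, 146 and 151 CPM in the knockdown libraries. Every knockdown library was above every control, but control replicate 2 was far below the others. Its log2 fold change of 0.75 had an SE of 0.353 and did not pass (adjusted p = 0.118). With that library left out the value was 0.41, and it passed (adjusted p = 4.54e-05). Usp27x (ENSMUSG00000046269.18, chromosome X), which uses the same adaptors, overlapped between groups, at 5.54, 3.77 and 4.95 CPM in the control libraries and 4.66, 6.13 and 5.34 CPM in the knockdown libraries (log2 fold change 0.18, adjusted p = 0.5). Usp51, the other relative, had 5, 2 and 2 counts in the controls and 0 in each knockdown library, below the filter. Usp36, a nucleolar protease, was at 226 ± 42.9 and 233 ± 8.67 CPM and did not pass. In the GC-corrected fit it was at −0.44 (adjusted p = 0.0912), and with control replicate 2 left out as well it was at −0.59 and was called lower.

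Of the 3 members tied to the proteasome and to free ubiquitin chains, 1 fell, where 26.8% of all tested genes did. Usp14 (ENSMUSG00000047879.18, chromosome 18), which sits on the proteasome and trims chains from its substrates, was at 47.9, 34.9 and 39.1 CPM in the control libraries and 19.4, 17.9 and 17.8 CPM in the knockdown libraries. All knockdown libraries were at about the same level below the controls (log2 fold change −1.15, SE 0.156, adjusted p = 0.00115). With the GC trend removed it was called the other way, at 1.06 (SE 0.119, adjusted p = 0.00121), and it was higher in all 5 fits that correct for GC content and lower in the other 17 alternative settings. Its transcript has the lowest GC content of the tested members (39.2%). In addition, 26.0% of its annotated exon bases overlap Thoc1 on the opposite strand, so its counts are uncertain where reads could be shared. Usp5 (ENSMUSG00000038429.11, chromosome 6), which takes free chains apart, was at 75.8, 57.5 and 78.2 CPM in the control libraries and 94.3, 88.8 and 93.7 CPM in the knockdown libraries. Its groups did not overlap, but the difference of 0.39 did not pass (adjusted p = 0.0681). It passed without control replicate 2 (0.26, adjusted p = 0.00202), and it was at −0.09 in the GC-corrected fit. Usp13 (ENSMUSG00000056900.14, chromosome 3), its relative, was at 3.06, 2.91 and 2.90 CPM in the control libraries and 3.98, 3.12 and 3.19 CPM in the knockdown libraries and was not called (0.21, adjusted p = 0.356).

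Of 7 tested members of endosomes and membrane organelles 2 fell and 2 rose, and the median was −0.31. Among all tested genes 26.8% fell and 21.1% rose, so these counts are near the shares of all genes. In the GC-corrected fit 1 fell and none rose, where 15.2% and 16.3% of all genes did. Usp32 (ENSMUSG00000000804.15, chromosome 11), which acts on Rab7 at late endosomes, was at 81.0, 38.8 and 77.7 CPM in the control libraries and 15.6, 14.1 and 15.5 CPM in the knockdown libraries. It fell 4.38-fold without overlap (log2 fold change −2.13, SE 0.284, adjusted p = 0.00109) and was at −1.03 in the GC-corrected fit (adjusted p = 0.0109). Usp30 (ENSMUSG00000029592.12, chromosome 5), which opposes the removal of mitochondria from their outer membrane, was at 50.9, 68.0 and 59.5 CPM in the control libraries and 99.3, 99.4 and 91.0 CPM in the knockdown libraries. Its control replicate 2 was the highest of the controls, and all knockdown libraries were above it (log2 fold change 0.70, SE 0.144, adjusted p = 0.00652). In the GC-corrected fit Usp30 was at 0.29 and did not pass (adjusted p = 0.139). Usp20 (ENSMUSG00000026854.17, chromosome 2), which acts on adrenergic receptors and on HIF1-alpha, was at 14.2, 14.6 and 14.7 CPM in the control libraries and 24.4, 22.7 and 22.6 CPM in the knockdown libraries, with control replicate 2 between the others. It rose (log2 fold change 0.68, SE 0.119, adjusted p = 0.00327) and was at 0.19 in the GC-corrected fit, not called.

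Usp33 (ENSMUSG00000025437.16, chromosome 3), the closest relative of Usp20, was at 78.4, 31.5 and 79.6 CPM in the control libraries and 32.7, 29.4 and 32.4 CPM in the knockdown libraries. Here control replicate 2 lay among the knockdown libraries and the groups overlapped. Its call was close to the threshold (log2 fold change −1.01, SE 0.335, adjusted p = 0.0423) and was kept in 7 of 22 alternative settings. It was lost without any 1 library other than control replicate 2 (adjusted p from 0.108 to 0.127) and in the GC-corrected fit, where the value was 0.32. Without control replicate 2 it was at −1.33 (adjusted p = 5.62e-11). Usp8, the endosomal protease of Egfr and other receptors, was the least steady of the abundant members. It had 8639, 1491 and 7972 counts in the controls and 3081, 3259 and 3565 in the knockdown. The knockdown libraries lay between control replicate 2 and the other controls, and Usp8 did not pass (log2 fold change −0.99, SE 0.544, adjusted p = 0.173). When that library was left out Usp8 was at −1.44 (adjusted p = 4.22e-11). Usp19, a protease anchored in the endoplasmic reticulum, was at 114 ± 36.3 and 159 ± 2.56 CPM and did not pass (adjusted p = 0.14). Usp6nl (ENSMUSG00000039046.16, chromosome 2), the Rab GTPase-activating protein, was at 43.7, 39.7 and 49.4 CPM in the control libraries and 37.3, 35.3 and 34.4 CPM in the knockdown libraries. It did not pass (−0.31, adjusted p = 0.0897), passed as lower without control replicate 2 (−0.38, adjusted p = 0.000406), and was at 0.28 in the GC-corrected fit.

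The largest fall of all was that of Usp53 (ENSMUSG00000039701.12, chromosome 3), whose product is found at tight junctions. It was at 262, 68.9 and 227 CPM in the control libraries and 9.20, 9.31 and 10.2 CPM in the knockdown libraries. Every knockdown library was far below control replicate 2, which was itself far below the other controls. The group means were 186 ± 103 and 9.57 ± 0.552 CPM, 19.4-fold apart (log2 fold change −4.28, SE 0.499, adjusted p = 0.000607). In the GC-corrected fit the value was −2.26 (SE 0.369, adjusted p = 0.00501), still the lowest of the family. Its relative Usp54 had means of 14.1 ± 6.43 and 12.3 ± 1.71 CPM and did not pass (adjusted p = 0.681). Of the members without a place in the groups above, Usp24, Usp38 and Usp48 fell in both fits. Usp24, a very large protease described on p53 and Mcl1, was at −1.33 and −0.93, Usp38 at −1.20 and −0.73, and Usp48, a protease of the NF-kB subunit RelA, at −0.59 and −0.45. Of the exon bases of Usp38 20.5% overlap an antisense gene. Usp31 was at −1.10 (adjusted p = 0.0202) and not called in the GC-corrected fit, and it kept its call in 10 of 22 alternative settings. Usp35, Usp39, Usp40, Usp42, Usp49 and Usp50 did not pass in either fit. Their log2 fold changes ran from −0.36 to 0.12 without the correction and from −0.69 (Usp35) to 0.13 (Usp42) with it. Usp35 was called lower in 4 of 22 alternative settings and Usp40 in 2 of 20.

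Usp1, Usp12 and Usp46 are all switched on by the same cofactor, the WD-repeat protein Wdr48, and among them only Usp1 was called lower. Usp12 (ENSMUSG00000029640.18, chromosome 5) was at 41.3, 30.2 and 44.2 CPM in the control libraries and 41.0, 43.1 and 42.4 CPM in the knockdown libraries, and Usp46 (ENSMUSG00000054814.15, chromosome 5) at 6.31, 4.21 and 5.46 CPM in the control libraries and 6.53, 5.35 and 5.47 CPM in the knockdown libraries. Both overlapped between groups, with log2 fold changes of 0.13 (adjusted p = 0.548) and 0.12 (adjusted p = 0.647), which turned to −0.017 and −0.024 without control replicate 2. In the GC-corrected fit Usp46 was called higher, at 1.24 (adjusted p = 0.00178), and Usp12, at 0.19, was not called. Wdr48 itself was at 53.1 ± 14.2 and 55.8 ± 2.75 CPM and did not pass (log2 fold change 0.07, adjusted p = 0.802).

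To compare relatives within a library, the ratio of their FPKM was taken in each library, for 10 pairs that do not include Usp53 and Usp54. The ratio of Usp4 to Usp15 was 0.795, 0.920 and 0.941 in the controls and 9.36, 10.8 and 8.47 in the knockdown libraries, a 10.8-fold change of the geometric mean. In FPKM, near parity in every control had become a large excess of Usp4. The parity depends on the gene lengths behind the FPKM, whereas the change between groups does not. By the transcripts used here (3662 nt for Usp4, 11525 nt for Usp15), counts per base put Usp4 above Usp15 in every control too. The ratio of Usp12 to Usp1 was 0.167, 0.268 and 0.192 in the controls and 1.26, 1.27 and 1.13 in the knockdown, so that Usp1 was the higher in all controls and Usp12 the higher in all knockdown libraries. The Usp20 to Usp33 ratio was 0.195, 0.50 and 0.198 and then 0.802, 0.833 and 0.752, and the Usp28 to Usp25 ratio 0.517, 1.05 and 0.505 and then 1.40, 1.14 and 1.31. Usp11 to Usp15, Usp46 to Usp1 and Usp22 to Usp27x also shifted without overlap, by 13.2, 5.91 and 1.63-fold. For each of these 7 pairs the exact permutation test, two-sided over 3 against 3 libraries, gave p = 0.1, the smallest this design allows, and 0.143 after Benjamini-Hochberg adjustment over the 10 pairs. The pairs Usp12 to Usp46, Usp4 to Usp11 and Usp5 to Usp13 overlapped between groups, with exact permutation p = 1, 1 and 0.4. The ratios carry the GC content of both transcripts, which was 51.0% for Usp4 and 42.3% for Usp15, and 49.6% for Usp12 and 44.1% for Usp1.

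**Figure D2:**
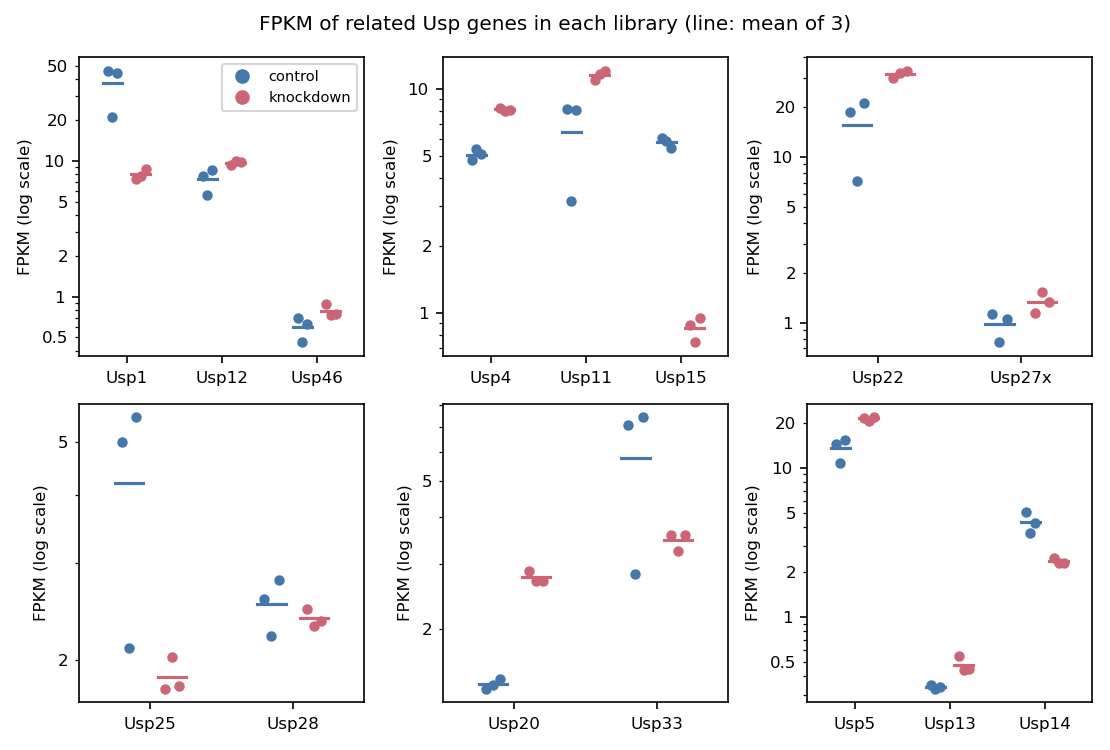
FPKM of related Usp genes in each library on a log scale (y axis), 1 panel per set, with 1 point per library and a line at the mean of the 3 libraries of a group. In FPKM Usp15 lies above Usp4 in every control library and below it in every knockdown library. The order of Usp15 and Usp4 in the controls depends on the gene lengths behind the FPKM. Usp1 and Usp12 also trade places.

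The falls were found in the members whose transcripts are poor in GC. Across the 46 tested members the log2 fold change was correlated with transcript GC content (Spearman 0.81, Pearson 0.75), a description across genes that share the same libraries. The 13 members under 45% GC held 12 falls and no rise, where 74.1% of all genes of that class fell and 0.784% rose. Of 16 members from 45 to 50% GC 6 fell, against 31.1% of all such genes. Among the 17 members at 50% GC or above none fell and 5 rose, against 5.25% and 36.2% of all such genes. The exception under 45% was Usp46, at 43.6% GC and a log2 fold change of 0.12. The GC content of the members that fell ran from 39.2 to 49.0% (median 43.9%), and that of the members that rose from 50.9 to 57.7% (median 54.6%), so these sets do not overlap. Once the trend was removed the Spearman correlation with GC content was 0.17.

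**Figure D3:**
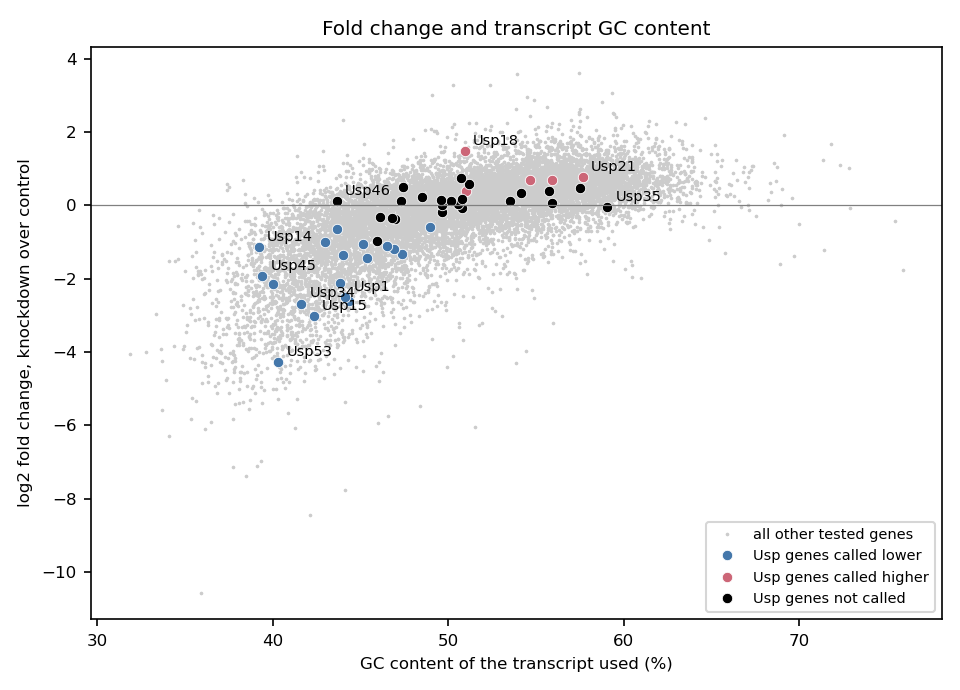
Log2 fold change, knockdown over control (y axis), against the GC content of the transcript used for each gene (x axis, %), for all tested genes (grey) and the tested Usp genes (coloured by call). The Usp genes follow the trend of all genes, with every fall under 50% GC and every rise above it.

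The members also have long transcripts, with a median of 4655.5 nt against 2840 nt for all tested genes, and the Spearman correlation of their log2 fold change with length was −0.47. The members that fell had a median length of 5769 nt and those that rose 3662 nt. Over the 36 bases around the cysteine, found in more members than are shown above, GC content ran from 27.8 to 61.1% (median 41.7%) in the 15 members with a stretch that fell, from 44.4 to 50% (median 48.6%) in the 4 that rose and from 36.1 to 58.3% (median 50%) in the 20 that were not called. These ranges overlap. The stretch of Usp33 has 27.8% GC and that of Usp20 44.4%.

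**Figure D4:**
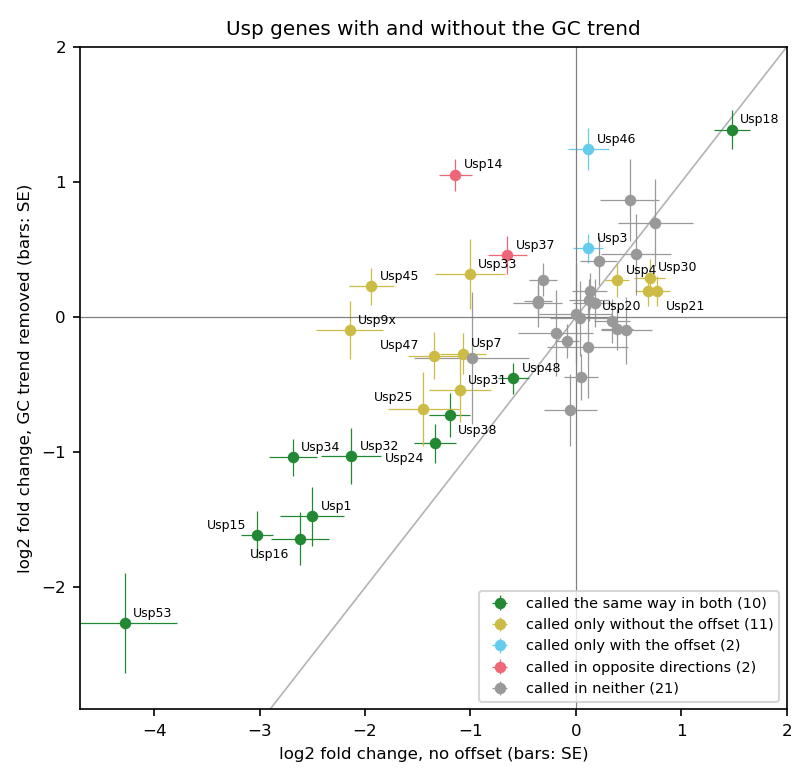
Log2 fold change of each tested Usp gene in the fit without a correction (x axis) and in the GC-corrected fit (y axis), with bars of 1 SE, and the diagonal where both are equal. Usp18 lies on the diagonal, Usp53, Usp15, Usp34, Usp16, Usp1 and Usp32 lie above it but below 0, and Usp14 and Usp46 move to 1.06 and 1.24.

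The 6 members below the count filter were Usp17lb, Usp17ld, Usp17le, Usp29, Usp44 and Usp51, none of which had more than 7 counts in a library. Usp44, which guards the spindle checkpoint, and the imprinted gene Usp29 had 1 count each over all libraries. The Usp17l genes of chromosome 7 are near-identical copies induced by cytokines in blood cells, and their counts are uncertain where reads match several copies. Usp17la, the only tested one, stayed between 0.573 and 1.06 CPM and was not called (0.51, adjusted p = 0.173). Usp49 shares 51.2% of its exon bases with Gm20517 on the same strand and is uncertain for that reason.

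Of the 3 genes with a USP fold under another symbol, Pan2, a subunit of a deadenylase, fell in both fits (−1.34 and −1.51). Cyld, which cuts linear and lysine-63 chains, fell only without the correction (−0.96, adjusted p = 0.00698), and Uspl1, a SUMO protease, did not pass. Of 32 tested deubiquitinases of other families 16 fell and 5 rose, with a median of −0.63, where 26.8% of all tested genes fell and 21.1% rose. In the GC-corrected fit 7 fell and 7 rose, where 15.2% and 16.3% of all genes did. Mysm1, a histone H2A deubiquitinase, had means of 47.1 ± 12 and 4.84 ± 0.191 CPM (log2 fold change −3.28, SE 0.224, adjusted p = 6.82e-05), and Zranb1 had means of 57.8 ± 12.5 and 10.2 ± 0.863 CPM (log2 fold change −2.50, SE 0.192, adjusted p = 0.000109). Both fell in the GC-corrected fit too, at −1.25 and −1.59. Brcc3, of the BRCA1-A complex, turned from −1.99 to 0.99, called both times, and Uchl5, a protease of the proteasome, went from −2.25 to −0.44, not called.

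Among 13 cofactors of USPs 5 fell and 1 rose, where 26.8% of all tested genes fell and 21.1% rose. In the GC-corrected fit 2 fell and 5 rose, where 15.2% and 16.3% of all genes did. Atxn7, the subunit that anchors the Usp22 module in SAGA, was at 22.5, 10.3 and 17.4 CPM in the control libraries and 3.33, 3.12 and 3.73 CPM in the knockdown libraries. It fell in both fits (−2.30 and −2.65), at a transcript GC content of 53.9%. Wdr20, another activator of Usp12 and Usp46, fell (−0.94, and −0.37 in the GC-corrected fit), and its relative Dmwd rose (0.81, then 0.094, not called). Gmps, a partner of Usp7, turned from −1.13 to 1.12, called both times. Of 6 genes of ubiquitin and its activating enzymes, Uba6 fell (−3.12, adjusted p = 0.000428), and Uba1 (0.59, adjusted p = 0.00403) and the polyubiquitin gene Ubb (0.46, adjusted p = 0.0427) rose. Of these only Uba1 was called in the GC-corrected fit (0.38). The shares of all genes given for the cofactors stand behind these counts too.

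The RNAs of 12 proteins described as USP substrates were also listed, with earlier results of these data known. Of these, 9 were called lower and none higher, with a median of −0.73, against 26.8% and 21.1% of all tested genes, and 6 were lower and none higher in the GC-corrected fit, against 15.2% and 16.3%. Trp53, the gene of p53, was at 24.7, 30.2 and 29.3 CPM in the control libraries and 13.1, 13.2 and 12.3 CPM in the knockdown libraries, and Mdm2, the gene of its ligase, at 148, 103 and 139.9 CPM in the control libraries and 61.9, 59.9 and 60.8 CPM in the knockdown libraries. Both fell without overlap between groups (−1.13, adjusted p = 0.000681, and −1.10, adjusted p = 0.00162) and in the GC-corrected fit (−1.49 and −0.52). The receptor gene Egfr was at −1.53 and −0.57, and the survival gene Mcl1 at −0.75 and −0.58, called in both fits. USPs act on the proteins, which were not measured here.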

How the data were processed

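From 2 μg of total RNA per library a stranded mRNA kit made PCR products of 200 to 500 bp, read as paired ends of 150 bases, per the labels' protocols. The submitters' processing notes name HISAT2, MultiQC and build GRCm39. Counting tool, annotation and strand setting remain not given in the sources used here. Raw counts per gene were deposited by the authors (22030 genes), as were FPKM values (21879 genes), in which the authors scaled counts by gene length and library total. All columns were assigned by name, and no row lacked a gene symbol.

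The test was edgeR 4.0.16 in R 4.3.3 (filterByExpr, TMM, glmQLFit with robust estimation, glmQLFTest, two-sided) over the 13067 genes kept, which hold 99.95% of the counts. TMM factors ran from 0.895 to 0.942 in the controls and from 1.08 to 1.10 under knockdown. P-values were adjusted over all tested genes by Benjamini-Hochberg and called under 0.05. A printed SE is the absolute log2 fold change over the square root of F. For the GC-corrected fit, a loess curve (span 0.3, degree 1) of log2 CPM (prior count 2), centred on the mean over libraries, against transcript GC content entered the model as an offset for each library. GC content came from GENCODE M21 (GRCm38), 1 transcript per gene, that with the longest coding part, for 13043 genes (99.8%) and all 52 members, and this transcript need not be the one expressed. Exon overlaps came from the same annotation. FPKM served for levels between genes, pair ratios (exact permutation test, scipy 1.17.1) and alternatives. The scripts were checked on simulated counts.

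Values in every library were given for the 8 largest called falls, up to 8 called rises, sets of related members, Usp7, Usp9x, Usp18 and Usp6nl. The 5 members of highest FPKM, and up to 4 genes of smallest p in each list outside the family, were named too. Other members, and Isg15 and Wdr48, were named to account for the family and its partners. The members and lists were chosen with earlier results of these data known. Alternatives were DESeq2 1.42.0, limma-voom and limma-trend (limma 3.58.1), RLE, upper-quartile and library-total scaling, other filters, a replicate block, each library left out, and other GC corrections.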

Additional observations from a re-analysis of the deposited data

How the results depend on the processing

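The settings tried were 22 in all. Genes changed over the whole table numbered 6266, 9446 with limma-voom and quality weights, 4118 with the GC offset, 3102 with the GC offset and the replicate block, and 4340 to 9592 with 1 library left out, the highest without control replicate 2. Members called lower numbered 18, 9 with the GC offset, 11 with GC content and length removed, 8 with the GC offset and the block, and 8 with the offset from the longest transcript, a setting chosen after the data were seen. Leaving out 1 library gave 14 to 24. Members called higher numbered 5, 9 with limma-voom, 10 under upper-quartile scaling, 8 with library totals alone, 10 on log2(FPKM + 1), 10 on log2(FPKM + 0.1) and 8 on FPKM without a filter. They numbered 12 in the GC-corrected fit without control replicate 2, 3 with the GC offset and the block, and 4 to 10 with 1 library left out. The member median of −0.14 was −0.36 with limma-voom, 0.071 under upper-quartile scaling, 0.11 with library totals, −0.37 with a filter of 5 CPM in 3 libraries, 0.033 on FPKM without a filter and 0.045 with GC content and length removed, and −0.34 to −0.086 with 1 library left out. Riok3 lost its call only with the longest transcript (−0.62).

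Of the members given in CPM for every library, 9 turned in sign under some setting. Members outside that set turned too. Among them were Usp37 (from −0.77 to 0.56 over the alternatives), Usp10 (−0.17 to 0.63), Usp19 (−0.35 to 0.81) and Usp36 (−0.59 to 0.34). With the GC offset Usp14 was at 1.06, Usp33 at 0.32, Usp45 at 0.23, Usp28 at 0.12, Usp6nl at 0.28 and Usp5 at −0.090. With length removed too they were at 1.14, 0.37, 0.39, 0.11, 0.28 and −0.14 (Usp5), and Usp9x was at 0.21. Without control replicate 2 in the GC-corrected fit they were at 1.10, 0.067, 0.15, 0.13, 0.29 and −0.22, and with the GC offset and the block at 1.06, 0.38, 0.23, 0.12, 0.28 and −0.078. With the longest transcript Usp14 was at 0.79, Usp33 at 0.17, Usp28 at 0.019 and Usp5 at −0.12. Usp12 was at −0.023 with limma-voom and from −0.017 to 0.24 with 1 library left out, and Usp46 from −0.024 to 0.25, the lowest both times without control replicate 2. The cause of these shifts was not tested.

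The labels name no animal or day that same-numbered libraries share. Correlations of their deviations from the group mean were −0.076, 0.044 and 0.052, against −0.107 to 0.12 between libraries of different number. With 3 libraries per group these values cannot show whether same-numbered libraries share a day or batch. With the number as a replicate block 5615 genes changed, 17 members were lower and 4 higher, with a median of −0.085. Of the members called, Usp1, Usp15, Usp18, Usp24, Usp32, Usp34, Usp38 and Usp53 kept their call in all 22 settings. The offset removes any difference between the groups that goes with GC content, whatever its source, and members under 1 CPM are limited by depth.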
